A study of Mus musculus with 4 samples.

Results

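Tmem252 and Apold1 are 2 of the 31053 genes in the count files, and they were followed here through the endothelial cells (EC) and the other cell types of the mouse brain vasculature. They were chosen because earlier results of the same libraries gave them higher levels in EC after chronic social defeat (CSD) than in home cage (HC) mice, and higher levels in EC than in other cells. The levels by condition and by cell class are therefore given as a description, without a test.

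Single-cell RNA of brain vascular-associated cells (BVACs) was measured in 4 libraries, CSD 1, CSD 2, HC 1 and HC 2, made with the 10x Chromium 3′ kit. All mice were male wild-type C57BL/6 aged 12 to 14 weeks, and cells of 4 mice were pooled into each library, so that n = 2 libraries per condition out of 8 mice per condition. CSD mice lived for 14 days behind a perforated partition in the cage of an aggressive CD-1 mouse, with 5 min of direct contact per day. HC mice were kept for the same 14 days with a CD-1 partner behind a partition that was never removed. Cells of both conditions were captured with beads coated with an antibody against CD31, which recognises EC, and freed with collagenase and mechanical steps after removal of the cerebellum, striatum, brainstem and olfactory bulbs.

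Apold1 (apolipoprotein L domain containing 1, also known as VERGE, for vascular early response gene) is an endothelial gene that is switched on quickly by stimuli such as hypoxia and growth factors, and its protein has been linked to endothelial cell contacts and to Weibel-Palade bodies, the storage granules of von Willebrand factor. Early response genes (immediate-early genes, IEGs) such as Fos, Jun and Egr1 encode mostly transcription factors that are transcribed within minutes of a stimulus, without new protein synthesis. Tmem252 encodes a small transmembrane protein about which little is known.

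Both genes are short and stand clear of other genes, so that UMIs (unique molecular identifiers, 1 per captured transcript) are not shared with a neighbour. In the GENCODE annotation of build GRCm38, Tmem252 (ENSMUSG00000048572) lies on the forward strand of chromosome 19 from 24674008 to 24682233, with 2 exons, 183 codons and a 3′ UTR of 4421 bases. Its nearest neighbour, Pgm5, lies 783 bases away on the reverse strand. Apold1 (ENSMUSG00000090698) lies on the forward strand of chromosome 6 from 134981718 to 134986836, with 2 exons, 246 codons and a 3′ UTR of 2511 bases, and its nearest neighbour Ddx47 is 24776 bases away. No annotated gene overlaps either of them.

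The 250 bases before the start of each gene, as RefSeq gives it on GRCm38.p6, were searched for 11 motifs, those of early response, hypoxia, glucocorticoid, inflammatory and endothelial transcription factors and the TATA box, since both genes were higher in EC with more early response transcripts. Both strands were read, except for the TATA box, which was searched only as the letters TATAAA. The sequence before Tmem252 is shown first, forward strand, with the SOX site in capitals.
Tmem252, chr19:24673758-24674007: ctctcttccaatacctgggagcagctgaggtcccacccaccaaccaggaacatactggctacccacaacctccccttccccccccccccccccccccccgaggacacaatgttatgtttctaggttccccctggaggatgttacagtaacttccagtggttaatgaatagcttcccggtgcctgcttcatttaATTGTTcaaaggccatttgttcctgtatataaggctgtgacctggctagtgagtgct
The only match in it was the SOX site ATTGTT, 57 bases before the start, which 9.42% of 32851 promoter windows of the same length hold. Near its end it holds tatataa, which resembles a TATA box but is not matched by TATAAA. The search therefore does not show that Tmem252 lacks a TATA box. RefSeq starts Apold1 at position 134982001, inside the first exon of GENCODE, so only the surroundings of matches are shown, again on the forward strand and with the match in capitals.
Apold1 CRE half-site, chr6:134981936-134981965: gctttcccagagcCGTCAttggctcctggg
Apold1 HIF core, chr6:134981825-134981854: tcctaaatacgggACGTGctttgccagcgt
The CRE half-site TGACG, read here on the reverse strand 52 bases before the RefSeq start, occurs in 17.8% of windows. The HIF core ACGTG, 163 bases before the start, occurs in 16.6%, and the TATA box TATAAA, 32 bases before it, in 7.59%. None of the windows of Tmem252 and Apold1 held the AP-1 site TGANTCA, the full CRE TGACGTCA, a CArG box, a kappaB site, the EGR site GCGTGGGCG, the forkhead site GTAAACA or the glucocorticoid response element, which says only that these letters are not in these windows.

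Barcodes that reached 500 UMIs and 250 genes and had no more than 25% mitochondrial UMIs were taken as cells, which kept 14415 cells, from 2553 in CSD 2 to 4934 in HC 2. The libraries held 27297599 to 30361474 UMIs, of which 32.6% in CSD 2 and 51.8% to 56.8% in the others were in cells, and the median depth per cell ran from 1408 UMIs in HC 2 to 2357 in HC 1. Any pair of libraries shared 0 to 9 cell barcodes. Cells were assigned to 16 classes by fixed markers, and cells with markers of more than 1 class were set aside rather than passed through a doublet caller. EC made up 4866 cells, 1146 in CSD 1, 1129 in CSD 2, 891 in HC 1 and 1700 in HC 2, and 392 cells lay near the score limit of the EC gate. All 17 EC markers were detected in them, with a summed level of 28147 to 33960 CPM (UMIs per 1000000 UMIs), and the 10 genes with the largest fold in the gate against other cells included Itm2a, Ctla2a, Ly6c1, Flt1, Cldn5, Slco1a4 and Ly6a. The median EC held 1206.5 UMIs in CSD 1, 1416 in CSD 2, 1507 in HC 1 and 862 in HC 2. Levels below are CPM of the UMIs summed over the cells of a class in a library, with exact 95% Poisson intervals, which cover counting error only.

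Most of the UMIs of Tmem252 and Apold1 found in cells lay in EC, a share that also depends on how many cells of each class were captured. EC, 28.1% to 44.2% of the cells of a library, held 74.4% of the Tmem252 UMIs found in cells in CSD 1, 87.3% in CSD 2, 78.2% in HC 1 and 80.4% in HC 2. With the set-aside cells that carried EC markers beside those of another class, the share of Tmem252 was 90.1% to 96.0%. For Apold1 the share in EC was 60.5% in CSD 1, 76.9% in CSD 2, 64.2% in HC 1 and 61.3% in HC 2, and 74.7% to 86.6% with those cells. In every library EC had the highest level of both genes among the 11 to 13 classes that could be compared, and the genes were chosen in part for this. For Apold1 the lead was small in HC. Pericytes were at 315 CPM in HC 1 and 295 in HC 2, against 334 and 382 in EC, with overlapping intervals.

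In EC, the level of Tmem252 was 619 CPM in CSD 1 (585 to 655, 1227 UMIs), 741 in CSD 2 (705 to 778, 1601 UMIs), 154 in HC 1 (137 to 172, 290 UMIs) and 128 in HC 2 (112 to 146, 238 UMIs). Both CSD libraries lay above both HC libraries, and the distance between the groups was wider than that between libraries of a group. The means were 680.0 ± 85.7 CPM in CSD and 141 ± 18.0 in HC (SD, n = 2), a ratio of 4.82 or 2.27 on the log2 scale, which stayed between 2.14 and 2.41 when any library was left out. Among the 1714 genes with a mean EC level of at least 100 CPM this ratio ranked 1, and among all 10010 genes tested it ranked 9. A high place follows from the choice of the gene on this contrast.

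The level of Apold1 in EC was 624 CPM in CSD 1 (590 to 660, 1237 UMIs), 1154 in CSD 2 (1109 to 1200, 2495 UMIs), 334 in HC 1 (308 to 361, 630 UMIs) and 382 in HC 2 (355 to 411, 709 UMIs). Both CSD libraries again lay above both HC libraries, but CSD 1 and CSD 2 were farther from each other than CSD 1 was from HC 2. The means were 889 ± 375 CPM in CSD and 358 ± 34.1 in HC (SD, n = 2), a ratio of 2.48 or 1.31 on the log2 scale. CSD 2 carried much of this ratio, which was 0.80 on the log2 scale without CSD 2 and 1.69 without CSD 1. By the ratio Apold1 ranked 8 among the 1714 genes and 31 among all 10010 genes tested. Both members had both CSD libraries above both HC libraries, as did 14.3% of the 10010 genes tested in EC, a count from which nothing is read, since the genes were chosen on this contrast.

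The share of EC with at least 1 UMI of Tmem252 was 38.0% in CSD 1 (exact 95% binomial interval 35.2 to 40.9), 43.9% in CSD 2 (41.0 to 46.9), 15.3% in HC 1 (12.96 to 17.8) and 10.8% in HC 2 (9.33 to 12.3). For Apold1 the share was 46.7% in CSD 1 (43.8 to 49.6), 59.3% in CSD 2 (56.3 to 62.1), 27.9% in HC 1 (25.02 to 31.0) and 21.8% in HC 2 (19.8 to 23.8). Since EC differed in depth, each cell was thinned to 500 UMIs, and the shares of Tmem252 became 17.7%, 22.2%, 4.15% and 5.53% in the same order of libraries, and those of Apold1 23.1%, 34.7%, 10.9% and 13.6%. Both CSD libraries stayed above both HC libraries. In microglia, taken as the background class, 0% to 0.751% of cells held a UMI of Tmem252 and 0.325% to 2.10% one of Apold1, at median depths of 1854 to 4759 UMIs.

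A positive EC held on average 2.81 Tmem252 UMIs in CSD 1, 3.23 in CSD 2, 2.13 in HC 1 and 1.30 in HC 2, and for Apold1 2.31, 3.73, 2.53 and 1.92. On group means, the thinned share of positive EC was 4.13 times as high in CSD for Tmem252 and 2.36 times for Apold1, and the UMIs per positive cell, which were not thinned, were 1.76 and 1.36 times as high. For Apold1 the UMIs per positive cell of CSD and HC interleaved, and the ratio was 1.04 without CSD 2. For Tmem252 both CSD libraries lay above both HC libraries, and the ratio was 1.42 to 2.32 without any one library. A few cells held many Tmem252 transcripts: the richest EC had 48 UMIs in CSD 1, 73 in CSD 2, 55 in HC 1 and 9 in HC 2. The top 1% of EC, 9 to 17 cells, held 19.9% to 39.0% of the Tmem252 UMIs of a library and 9.46% to 17.8% of those of Apold1.

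Outside EC the members differed from each other. Apold1 was present in mural cells, the contractile cells around vessels. Its level in pericytes was 395 CPM in CSD 1 (289 to 527, 46 UMIs), 382 in CSD 2 (310 to 467, 96 UMIs), 315 in HC 1 (222 to 435, 37 UMIs) and 295 in HC 2 (225 to 381, 59 UMIs). In arterial smooth muscle cells (SMC) it was 209 CPM in CSD 1, 402 in CSD 2, 172 in HC 1 and 290 in HC 2, from 110 to 202 UMIs. Both CSD libraries lay above both HC libraries in pericytes, but the counting intervals overlapped among all 4 libraries, and the SMC levels of CSD and HC interleaved. The log2 ratio of CSD to HC was 0.35 in pericytes (0.30 to 0.40 without any one library) and 0.40 in SMC, where it was -0.14 without CSD 2. In HC 1 the level in pericytes was close to the 334 CPM of EC, and the interval of the former holds the latter. In HC 2 the intervals of pericytes (225 to 381) and EC (355 to 411) overlapped as well.

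Tmem252 in pericytes was 189 CPM in CSD 1, 31.9 in CSD 2, 34.1 in HC 1 and at 0 in HC 2, from 22, 8, 4 and 0 UMIs, where a count of 0 allows a level up to 15.02 CPM. In SMC it was 19.2, 45.7, 26.7 and 7.75 CPM in the same order. The EC markers summed to 4030, 2544, 2199 and 2388 CPM in the pericytes, with 16 or 17 of 17 detected and the highest value in CSD 1. The part of EC transcripts in the pericyte levels of Tmem252 and Apold1, and in their ratios of CSD to HC, was not tested. Fibroblasts, the collagen-producing cells of vessel walls and brain borders, numbered 12 to 46 per library and held 8 and 11 UMIs of Tmem252 in CSD 1 and CSD 2 and none in the HC libraries, where a count of 0 allows 47.8 and 37.5 CPM. In CSD 2 all 11 UMIs were in 1 cell. For Apold1 fibroblasts held 30, 12, 0 and 1 UMIs.

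Microglia, choroid plexus cells and T cells were near 0 for both genes. In microglia, the resident macrophages of the brain, Tmem252 was at 0 to 2.16 CPM and Apold1 at 1.22 to 9.84 CPM, and in choroid plexus cells they were at 0.584 to 5.70 and 1.84 to 6.63 CPM. T cells held no UMI of Tmem252 in 20 to 42 cells per library, which allows up to 37.3 to 52.0 CPM, and 1 UMI of Apold1. Classes of few cells gave uncertain levels: neurons of HC 1 (19 cells) held 4 UMIs of Tmem252 and 13 of Apold1, and border-associated macrophages of HC 1 (47 cells) held 1 and 10. Free RNA, read from barcodes of up to 100 UMIs, had Tmem252 at 32.6 CPM in CSD 1, 50.2 in CSD 2, 6.09 in HC 1 and 10.4 in HC 2, and Apold1 at 44.8, 82.2, 18.3 and 27.4 CPM. The free RNA thus followed the order of the groups too, and its part in the low levels outside EC was not tested.

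Ordered by the mean over the 4 libraries, the levels of Tmem252 were 410 ± 315 CPM in EC, 76.8 ± 112 in fibroblasts, 63.8 ± 85.0 in pericytes and 24.8 ± 16.0 in SMC (SD, n = 4), followed by astrocytes, ependymal cells, choroid plexus cells, microglia and T cells. Those of Apold1 were 624 ± 376 in EC, 347 ± 49.2 in pericytes, 268 ± 101 in SMC and 133 ± 146 in fibroblasts, followed by astrocytes, microglia, ependymal cells, choroid plexus cells and T cells. The ranges over libraries of any neighbours in either order overlapped. The EC range spans both conditions, and the place of EC rests on the comparison within each library. For Apold1 the intervals of EC and pericytes overlapped in HC 1 and HC 2.

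**Figure D1:**
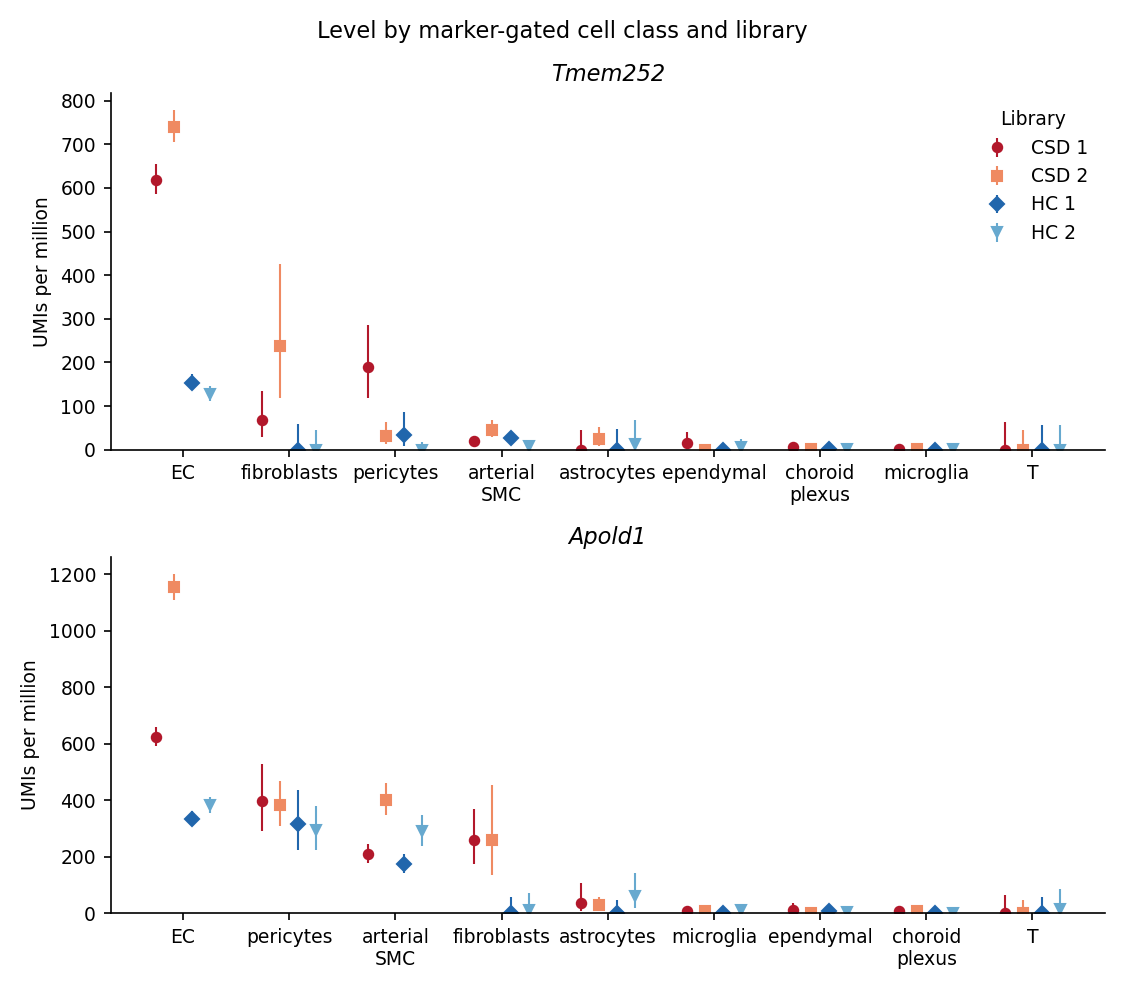
Levels of Tmem252 (top) and Apold1 (bottom) in CPM for 9 marker-gated cell classes with at least 10 cells in every library, ordered by mean level; each point is a library and each bar an exact 95% Poisson interval. EC stand highest in every library, with Tmem252 at 619 and 741 in CSD and 154 and 128 in HC. Apold1 is also seen in pericytes at 295 to 395, with bars that overlap those of EC in HC 1 and HC 2.

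EC were split by markers of vessel type into 2794 capillary-like, 215 arterial-like, 285 venous-like and 74 fenestrated-like cells, and 1498 EC met no rule. Many cells lay near the limits, 1258 with 3 or 4 capillary markers and 735 with 2 or 3 venous markers. The genes with the largest fold in the venous-like gate against other EC were Lcn2, Vcam1, Icam1, Cxcl1 and Ptgs2, genes of inflammation and leukocyte adhesion, and its own markers among the first 10 included Il1r1 and Ackr1. The arterial-like gate was led by its markers Gkn3, Bmx and Stmn2.

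Tmem252 was highest in venous-like EC. Its level there was 1372 CPM in CSD 1 (1234 to 1521, 58 cells), 1231 in CSD 2 (1119 to 1351, 99 cells), 499 in HC 1 (417 to 593, 74 cells) and 372 in HC 2 (271 to 497, 54 cells). In capillary-like EC it was 404, 541, 60.6 and 102 CPM in that order, so that the venous-like level was 3.40, 2.28, 8.24 and 3.65 times the capillary-like one. In HC 1 a single venous-like cell held 55 of the 130 Tmem252 UMIs. With the richest cell of each library left out, a choice made after the data were seen, the venous-like level was 1238, 1086, 312 and 322 CPM, or 3.07, 2.01, 5.15 and 3.17 times the capillary-like one. Arterial-like EC had 681, 1184, 80.7 and 229 CPM, between the other 2 types in every library, with the intervals of arterial- and venous-like EC overlapping in CSD 2 and HC 2 and those of arterial- and capillary-like EC in HC 1. Without its richest cell the venous-like level of CSD 2 (1086 CPM) was below the arterial-like one (1184 CPM). A Tmem252 UMI was found in 82.8% of venous-like EC in CSD 1, 70.7% in CSD 2, 41.9% in HC 1 and 37.0% in HC 2, at median depths of 3610.5, 2251, 2018.5 and 1188 UMIs, deeper than in capillary-like EC, which had 873 to 1340. Thinned to 500 UMIs the shares were 34.5%, 30.3%, 14.9% and 18.5% in venous-like and 16.2%, 19.8%, 2.50% and 5.06% in capillary-like EC. Earlier results of these libraries had already placed Tmem252 among the leading genes of a venous cluster, so this order is a description.

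Apold1 did not follow that order. In venous-like EC it was 608 CPM in CSD 1, 1123 in CSD 2, 299 in HC 1 and 421 in HC 2, against 600.2, 1095, 301 and 338 in capillary-like EC, ratios of 1.01, 1.03, 0.993 and 1.25. Arterial-like EC had the highest Apold1 of the 3 types in every library, at 757, 1566, 447 and 516 CPM, which was 1.26 to 1.53 times the capillary-like level. These levels rest on 36 to 65 cells per library and, over both HC libraries, on 137 UMIs. The venous-like level of HC 2 rests on 51 UMIs, and the order of the types was not tested. Both CSD libraries lay above both HC libraries in each type for both genes. The ratio of CSD to HC for Tmem252 was 5.82 in capillary-like, 6.02 in arterial-like and 2.99 in venous-like EC, and whether these ratios differ was not tested. For Apold1 the ratios were 2.65, 2.41 and 2.40. The arterial-like ratios rest on few cells: that of Tmem252 was 11.6 without HC 2 and 4.07 without HC 1, and that of Apold1 was 1.57 without CSD 2. Fenestrated-like EC, which line vessels without a tight barrier, held only 9 cells in CSD 2 and are not described further.

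**Figure D2:**
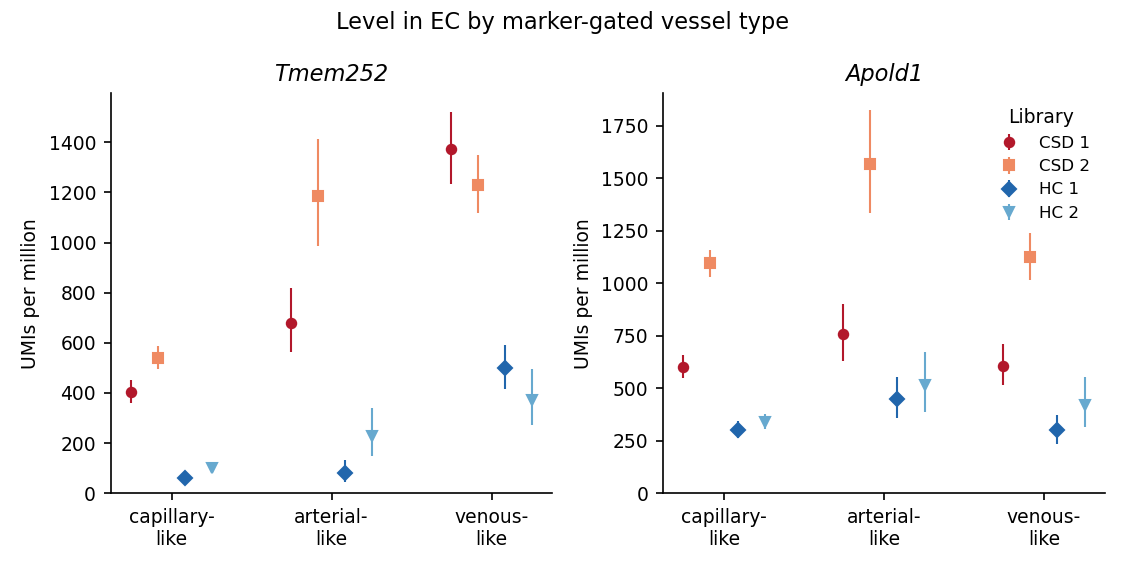
Levels of Tmem252 (left) and Apold1 (right) in CPM in capillary-like, arterial-like and venous-like EC; each point is a library and each bar an exact 95% Poisson interval. Tmem252 stands highest in venous-like EC, at 1372 and 1231 in CSD and 499 and 372 in HC, while venous-like and capillary-like EC are close for Apold1.

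The genes whose levels followed those of the members over single EC were sought in each library by Pearson correlation of log values over its 891 to 1700 EC, among 3459 genes with a UMI in at least 5% of the EC of every library, ranked by the lowest of the 4 values. These cells share a library and differ in depth, so the values are descriptive. For Apold1 the first 10 genes were Fos, Junb, Fosb, Egr1, Jun, Jund, Nr4a1, Btg2, Dusp1 and Adamts1, of which 9 are on the early response list. At most 24 of the 3459 ranked genes can be on that list, which was written with earlier results of these libraries known. The lowest r was 0.33 for Fos, 0.32 for Junb and 0.31 for Fosb, subunits of the AP-1 transcription factor, 0.27 for Egr1, a zinc finger factor, and 0.24 for Adamts1, a secreted protease. In HC 1 the values were higher, at 0.48 for Fos and 0.52 for Egr1.

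For Tmem252 the first 10 included Atf3, Junb, Fos, Ier3, Nr4a1 and Ier2, which are on the early response list, and Klf2, Csrp2 and Btf3, which are not. Their lowest r ran from 0.12 for Atf3 down to 0.089 for Btf3. In sparse counts such weak correlations are no finding by themselves. The lists of the members shared Fos, Junb and Nr4a1, 30% of each. Apold1 itself ranked 26 for Tmem252 and Tmem252 ranked 89 for Apold1, with a lowest r of 0.074. Over EC the levels of Fos were 2638 CPM in CSD 1, 2844 in CSD 2, 2072 in HC 1 and 2365 in HC 2, and those of Atf3 439, 584, 304 and 541.

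Early response transcripts were therefore set beside both members. The paper cautions that its capillary EC rich in IEGs may stem from the isolation, since enzymatic and mechanical steps can change transcripts. The part of the isolation in the early response levels given here was not tested. The 24 detected genes of the list summed to 19061 CPM in EC of CSD 1, 23234 in CSD 2, 15124 in HC 1 and 15745 in HC 2, so that their level moved with the condition. EC of each library were divided into low, middle and high groups of equal size by the share of their UMIs on this list, which does not hold either member. It does hold most of the genes that followed each member closest over these same EC. A rise of a member over the groups of a library therefore restates those correlations and is no separate support.

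Apold1 was higher in the middle than in the low group and highest in the high group of every library. In the low group it was 338 CPM in CSD 1, 472 in CSD 2, 40.4 in HC 1 and 76.1 in HC 2. In the middle group it was 545, 983, 126 and 161 CPM, and in the high group 818, 1608, 607 and 705 CPM. The high groups were deeper, with medians of 1075 to 2075 UMIs against 799 to 1187 in the low groups. Thinned to 500 UMIs, the mean share of EC with an Apold1 UMI was 16.3% in the low and 42.9% in the high group of CSD. In HC it was 2.18% and 27.6%. In HC 1 these thinned shares were 1.01% and 25.9%, where the unthinned shares were 5.39% and 61.3%. The ratio of CSD to HC was largest in EC with few early response transcripts, at 6.95 in the low, 5.33 in the middle and 1.85 in the high group. In CPM the group means of CSD and HC were 405 and 58.2 in the low, 764 and 143 in the middle and 1213 and 656 in the high group. By difference, then, the conditions were closest in the low group. Its ratio rests on 56 UMIs in HC and ran from 5.32 to 10.03 without any one library. The order of the ratios was not tested. In the high group CSD 1 and HC 2 were close, and the log2 ratio of 0.89 was 0.32 without CSD 2.

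Tmem252 also had its highest level in the high group of every library, and the CSD libraries lay above the HC libraries in each group. In the low group it was 333 CPM in CSD 1, 418 in CSD 2, 80.8 in HC 1 and 94.1 in HC 2. In the middle group it was 491, 684, 80.5 and 84.1 CPM, and in the high group 850, 941, 235 and 177 CPM, so that the low and middle groups of the HC libraries did not differ beyond their counting intervals. From the low to the high group it was 2.55 times as high in CSD 1, 2.25 in CSD 2, 2.91 in HC 1 and 1.88 in HC 2. For Apold1 this step was 2.42, 3.40, 15.04 and 9.26 times, so that the members differed mainly in the HC libraries, which was not tested. The Apold1 steps of HC 1 and HC 2 start from 40.4 and 76.1 CPM, on 56 UMIs in all. Free RNA held Apold1 at 18.3 and 27.4 CPM in these libraries, and its part in the steps was not tested. In HC 1 a single cell held 55 of the 210 Tmem252 UMIs of the high group, and without it the level was 177 CPM. The ratio of CSD to HC was 4.29, 7.14 and 4.35 in the low, middle and high groups.

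The groups were not matched between libraries, since the low group had 2517 and 3405 CPM of early response transcripts in CSD but 1216 and 1600 in HC. Below a common limit of 10000 CPM, chosen after the data were seen, the list summed to 4420 and 4467 CPM in CSD and 3280 and 3743 in HC. There Apold1 was 384 CPM in CSD 1, 523 in CSD 2, 89.4 in HC 1 and 110 in HC 2, a ratio of 4.55, and Tmem252 was 375, 446, 87.5 and 90.1 CPM, a ratio of 4.62. At or above the limit the ratio was 1.71 for Apold1 and 4.10 for Tmem252. Apold1 was there 768 CPM in CSD 1, 1448 in CSD 2, 620 in HC 1 and 677 in HC 2. CSD 1 thus lay nearer to both HC libraries than to CSD 2. Whether the early response transcripts take part in the difference between conditions was not tested.

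**Figure D3:**
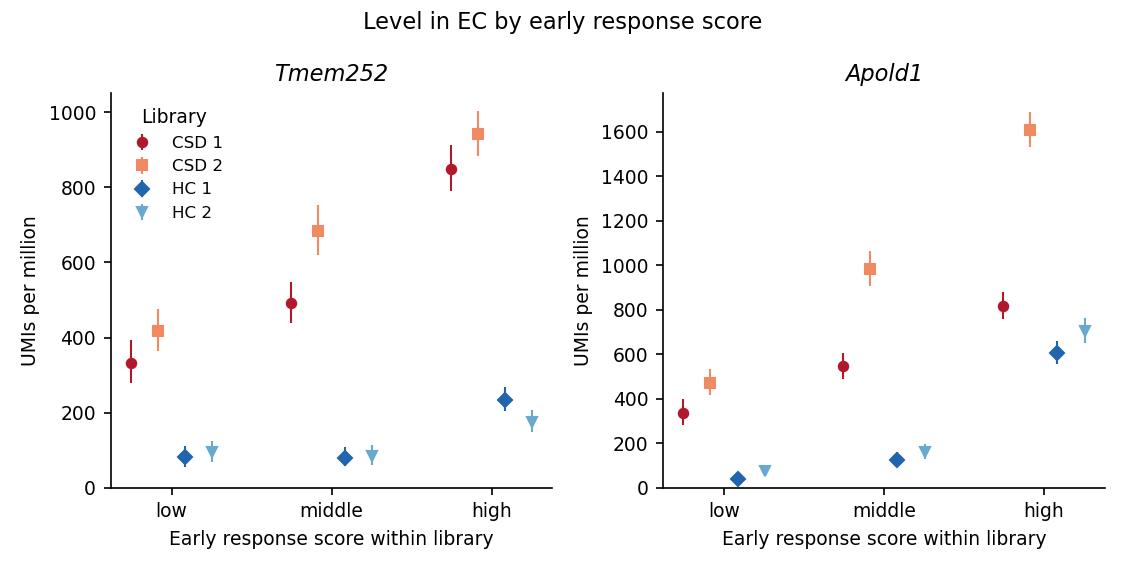
Levels of Tmem252 (left) and Apold1 (right) in CPM in EC divided within each library into groups of equal size with a low, middle and high early response score; each point is a library and each bar an exact 95% Poisson interval. Apold1 in HC goes from 40.4 and 76.1 in the low group to 607 and 705 in the high group, near CSD 1 at 818, while Tmem252 in HC stays at or below 235.

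Whether the members marked the same EC was described by counting cells. Both were seen in 261 EC of CSD 1, 335 of CSD 2, 66 of HC 1 and 68 of HC 2, which was 22.8%, 29.7%, 7.41% and 4.0% of EC. From their separate shares within 5 bins of cell depth, 243, 325, 57.2 and 55.1 such cells would be expected, so that the observed number was 1.07, 1.03, 1.15 and 1.23 times the expected one. Most of the overlap was thus expected from the separate shares at a given depth. An Apold1 UMI was found in 59.9% of Tmem252-positive and 38.6% of Tmem252-negative EC in CSD 1, 67.5% and 52.8% in CSD 2, 48.5% and 24.2% in HC 1 and 37.2% and 19.9% in HC 2, and the positive cells were deeper, with medians of 1603.5 against 1028.5 UMIs in CSD 1. The correlation of the members over EC was 0.15 in CSD 1, 0.092 in CSD 2, 0.11 in HC 1 and 0.074 in HC 2.

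**Figure D4:**
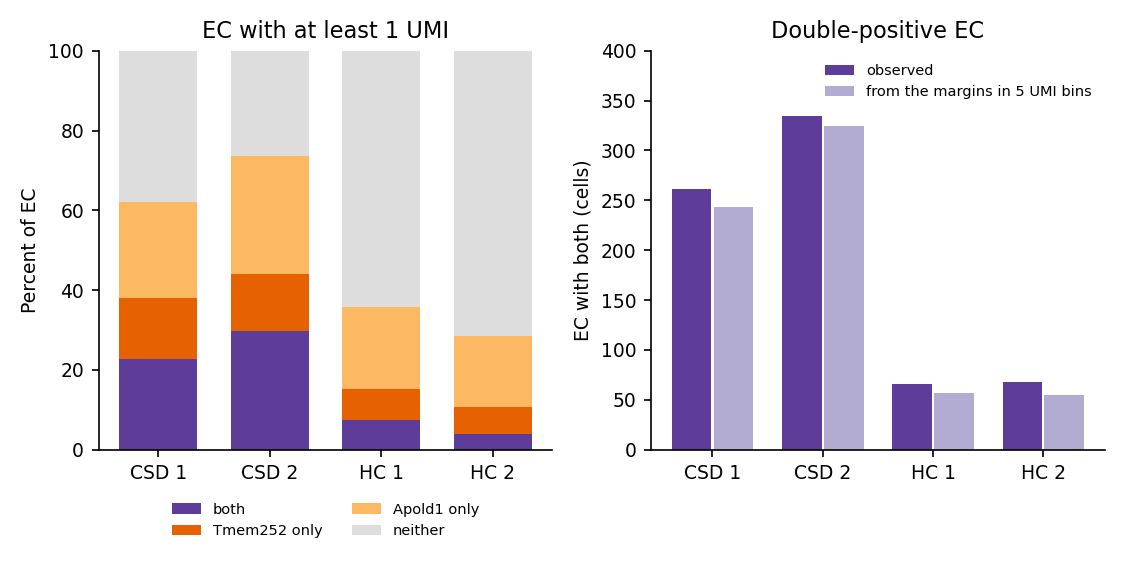
Left, the percent of EC with at least 1 UMI of both genes, of Tmem252 only, of Apold1 only or of neither, per library. Right, the number of EC with both, observed (dark bars) and expected from the separate shares within 5 bins of cell depth (light bars); 261, 335, 66 and 68 were observed against 243, 325, 57.2 and 55.1.

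Other transcripts in EC that moved with the condition, or with single libraries, stand beside these results. Markers of the most abundant other classes overlapped between CSD and HC: the 9 pericyte markers, all detected, summed to 571 to 752 CPM in CSD and 536 to 887 in HC, the 11 microglia markers, all detected, to 154 to 371 and 192 to 334, and the 8 choroid plexus markers, all detected, to 116 to 412 and 385 to 532. The choroid plexus transcript Ttr was at 4969 CPM in EC of CSD 1, 927 in CSD 2, 4280 in HC 1 and 10816 in HC 2, so that it was lowest in the library with the highest Apold1, and its part was not tested. Neutrophil and monocyte markers, 6 of 9 detected with Ly6g, Ccr2 and Chil3 at 0, summed to 5.09 to 14.1 CPM in CSD and 3.23 to 3.71 in HC. Venous markers, 10 of 10 detected, summed to 844 to 910 CPM in CSD and 697 to 819 in HC. The part of either list in the levels of the members was not tested. The share of venous-like cells among EC was 5.06%, 8.77%, 8.31% and 3.18% in the order CSD 1, CSD 2, HC 1 and HC 2, which does not follow the condition.

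The genes of the fixed lists were read from an edgeR quasi-likelihood test over all 10010 genes of the EC sums, with Benjamini-Hochberg adjustment. It called 2 genes, 0.02% of those tested, which were Tmem252 and Lcn2. Tmem252 was chosen on this contrast, so its call is no support, and Apold1 was not called. Lcn2 encodes a secreted iron-scavenging protein and was named after its values were seen. Only 1 of the 2 called genes was also called by DESeq2. No gene was called when CSD 1, CSD 2, HC 1 or HC 2 was left out. None of the 91 list genes tested was called by edgeR, while 39 passed at an unadjusted p under 0.05, all higher in CSD, against 5.17% of all genes higher and 2.62% lower (7.79% in all), and DESeq2 called 14, all higher, against 0.579% of all genes. The lists were written with earlier results of these libraries known, so the counts are no independent evidence of a direction.

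Of the glucocorticoid response genes, 12 of 15 passed at an unadjusted p under 0.05, 12 had both CSD libraries above both HC libraries (14.3% of all genes) and 0 both below (25.1% of all genes), and the median log2 fold change was 0.80, against 0.0055 over all genes tested. Of the early response genes, 15 of 24 passed at that level and 17 had both CSD libraries above and 0 both below, with a median of 0.57. For the hypoxia response 7 of 12 passed, 8 had both CSD libraries above and 1 both below, with a median of 0.53. For the VEGF response 4 of 13 passed, 7 had both above and 1 both below, with a median of 0.50. Among the Weibel-Palade body genes 2 of 10 passed, 3 had both CSD libraries above and 1 both below (median 0.30). Of the shear stress and Klf2 response genes 2 of 13 passed, 3 had both above and 2 both below (median 0.15). Of the endothelial junction genes 0 of 12 passed, 2 had both above and 1 both below (median 0.06), a share above that is near the one of all genes. Of the apolipoprotein L family, the only relatives of Apold1 by domain that were listed, 1 of 13 genes was high enough to be tested, Apol10b, at 14.6 and 10.6 CPM in CSD and 14.8 and 16.2 in HC.

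List genes picked after their values were seen show the range, from large fold changes to the small ones of Vwf and Cldn5. Cdkn1a, which encodes the cell cycle inhibitor p21, was at 595 and 730 CPM in CSD and 233 and 254 in HC, a log2 fold change of 1.51 with an adjusted p of 0.0528 in edgeR and 4.43e-11 in DESeq2. Fkbp5, a glucocorticoid-induced co-chaperone of the glucocorticoid receptor, was at 50.0 and 35.6 against 16.4 and 14.0 CPM (log2 fold change 1.55, edgeR adjusted p = 0.159, no adjusted p given by DESeq2). Maff, a small early response transcription factor, was at 91.9 and 143 against 42.4 and 40.4 CPM (1.57, edgeR adjusted p = 0.134, DESeq2 adjusted p = 7.65e-05). Plat, the tissue plasminogen activator stored in endothelial granules, was at 527 and 466 against 267 and 281 CPM (0.92, edgeR adjusted p = 0.146, DESeq2 adjusted p = 0.000505), and Vwf at 173 and 214 against 174 and 122 CPM, with the groups overlapping. Cldn5, the main claudin of the blood-brain barrier, was at 2068 and 3162 against 3026 and 3085 CPM. None of these reached the ratio of Tmem252, from which nothing is read, since Tmem252 was chosen on this contrast.

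**Figure D5:**
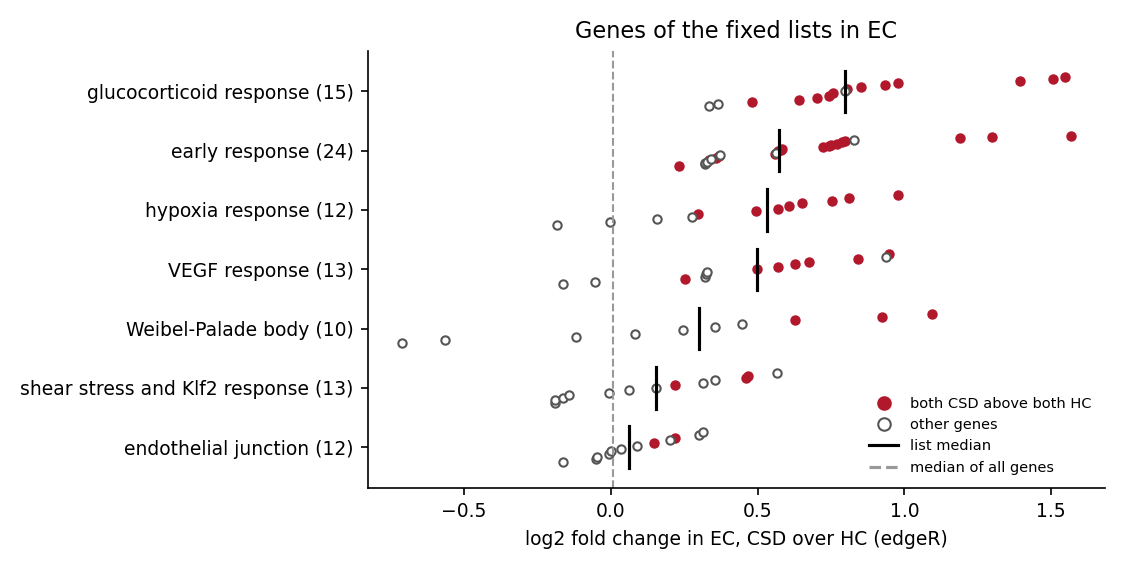
Log2 fold change (edgeR, CSD over HC, EC sums) of each tested gene of 7 fixed lists, with the number tested in brackets; filled points are genes with both CSD libraries above both HC libraries, black bars are list medians and the dashed line is the median of all 10010 genes. Medians run from 0.06 for endothelial junction to 0.80 for glucocorticoid response genes.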

How the data were processed

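For each of the 4 libraries the authors deposited raw UMI counts per gene for every barcode, without cell calling or normalization. The submitters' processing notes name Cell Ranger 4.0 and build GRCm38, and other sources of the study name other versions of this program. Barcodes with at least 500 UMIs, 250 genes and at most 25% mitochondrial UMIs were kept. A cell joined a class when at least 3 markers were seen, its marker score, relative to the mean of the top 100 cells, was at least 0.2 and the second score was at most 0.5 of the first. Arterial-, venous- and fenestrated-like EC had at least 3 markers of their type and capillary-like EC at least 4, and all but the fenestrated-like EC had fewer than 3 fenestrated markers and at most 1 of another arterial or venous type. No doublet caller was run. UMIs were summed per class and library and given as counts per 1000000 (CPM).

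The study's test over cells was replaced by edgeR 4.0.16 on the EC sums of all 4 libraries (filterByExpr, TMM, quasi-likelihood test, two-sided, threshold 0.05), because cells are not replicates, and DESeq2 1.42.0 was an alternative. With 200 of the genes changed in simulated counts, edgeR recovered 51.0% at 2-fold and 91.5% at 4-fold, with 5 and 9 false calls. Every simulated gene had the same dispersion of 0.0189, so these shares need not hold for the real counts. Libraries of the same number deviated together with r = 0.08 over genes, so the numbers were not used as pairs. With 2 libraries per group both pairs give this same value, so it counts as a single observation. Cells were thinned once to 500 UMIs with a fixed seed. Intervals and limits of 3 counts cover counting error only. The members and gene lists were chosen with earlier results of these data known. Genes named are the members, the 10 genes most like each of them, list genes that passed, and those said to be picked after their values were seen, and some items are not reported here. Python 3.11.15 and R 4.3.3 were used.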

Additional observations from a re-analysis of the deposited data

How the results depend on the processing

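The log2 ratio of Tmem252 in EC (2.27) moved by less than the spread between libraries under all 11 alternatives, from 2.14 to 2.41 without any one library. The ratio of Apold1 (1.31) ran from 0.80 to 1.69 without any one library, was 2.69 in the lower 0.5 of EC by early response score and 2.19 in EC below 10000 CPM of early response transcripts, a limit chosen after the data were seen, and moved by less than the spread between libraries under 8 of the 11. The thinned share of positive EC was 15.1 percentage points higher in CSD for Tmem252 (12.9 to 17.4 without any one library), 28.0 without thinning and 25.6 thinned to 1000 UMIs. For Apold1 it was 16.7 (10.9 to 22.5), 28.1 and 23.7. Observed over expected double-positive EC, averaged over libraries, was 1.12 and in the lower 0.5 of EC by early response score 1.24. Much of the 1.24 came from HC 2, at 1.83 from 9 double-positive EC against 4.92 expected. In the same lower part the value was 1.15 in CSD 1 and lower in CSD 2 and HC 1. A stronger overlap in EC with few early response transcripts is therefore not read from it. The study's filter on complexity (0.8) removed no EC. edgeR called 2 genes in EC, of which 0 were list genes, but 5 and 1 with DESeq2's size factors, 41 and 8 without a filter on low counts, 11 and 2 with the replicate number as a block, 11 and 1 in cells of at least 1000 UMIs, 9 and 1 at up to 10% mitochondrial UMIs, 11 and 2 with a stricter EC gate and 0 and 0 without any one library. DESeq2 called 58 and 14, and the 58 held 1 of the 2 genes called by edgeR. The cause of these changes was not tested. With 2 libraries per group, each a pool of 4 mice, the spread between mice is not measured.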
